A study of Mus musculus with 3 samples.

Results

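The genes that build, load and regulate MHC class I molecules were followed in 1 culture of transformed mouse esophageal cells. The set holds 10 genes, chosen by symbol: the heavy chains H2-K1 and H2-D1, the light chain B2m, the peptide transport and loading genes Tap1, Tap2 and Tapbp, the immunoproteasome subunits Psmb8 and Psmb9, the class I transactivator Nlrc5, and Cd274, which encodes the checkpoint ligand PD-L1. All 10 were present among the 32287 features of the count matrix. They were measured in the 14925 of 18116 cell barcodes that had at least 500 detected genes, at least 1000 unique molecular identifiers (UMIs, tags that mark single RNA molecules) and at most 20% mitochondrial UMIs.

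The cells, called PC, came from esophageal organoids of mice with floxed Trp53. Adenoviral Cre with EGFP removed Trp53, and CRISPR/Cas9 then knocked out Cdkn2a. The cells also expressed Cas9 constitutively, received a barcode library by Lipofectamine 3000, grew for 3 passages in serum-containing medium and were sorted as live RFP-positive cells before 10x Genomics 3' profiling. Every cell in the matrix therefore came from this editing and handling, and loss of Trp53 and Cdkn2a was not checked cell by cell. There was no untreated or wild-type control. The labels give neither the mouse strain, which sets the class I haplotype, nor the number of clones or animals.

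MHC class I molecules are complexes of a heavy chain, beta-2-microglobulin and a short peptide, and they display fragments of cellular proteins to CD8 T cells. The proteasome cuts the peptides, a transporter made of Tap1 and Tap2 carries them into the endoplasmic reticulum, and tapasin (Tapbp) tethers the transporter to the waiting heavy chain. Most nucleated cells make class I at a basal level, and interferons raise much of the pathway through IRF1 and NLRC5. NLRC5 acts on a conserved promoter module of heavy chain genes and B2m, in which X-box sequences with a TGACG-like core lie before an inverted CCAAT box.

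The promoter windows of the 3 most abundant members are shown first. These genes moved the same way in several comparisons below, but not between mesenchymal and epithelial cells. Any part of the promoter motifs in this was not tested. RefSeq promoters on GRCm38.p6 were matched for 8 of the 10 genes, and there was no entry for Tap2 or Nlrc5. Each sequence is the 250 bases before an annotated start, written 5' to 3' on the gene's strand. Capitals mark every match, on either strand, to a kappaB core (GGGGATTCC), an interferon-stimulated response element core (GAAANNGAA), an IRF element (GAANNGAAA), the X2 core (TGACG), the inverted CCAAT box (ATTGG) and the gamma-activated site (TTCNNNGAA). H2-K1 lies at chr17:34000348-34000597 (minus strand), H2-D1 at chr17:35262844-35263093 (plus strand) and B2m at chr2:122147437-122147686 (plus strand).
H2-K1: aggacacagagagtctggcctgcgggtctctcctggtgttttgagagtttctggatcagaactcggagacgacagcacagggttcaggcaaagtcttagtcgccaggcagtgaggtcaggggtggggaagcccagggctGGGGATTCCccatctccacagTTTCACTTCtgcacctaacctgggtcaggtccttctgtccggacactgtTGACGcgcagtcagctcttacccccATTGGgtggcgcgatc
H2-D1: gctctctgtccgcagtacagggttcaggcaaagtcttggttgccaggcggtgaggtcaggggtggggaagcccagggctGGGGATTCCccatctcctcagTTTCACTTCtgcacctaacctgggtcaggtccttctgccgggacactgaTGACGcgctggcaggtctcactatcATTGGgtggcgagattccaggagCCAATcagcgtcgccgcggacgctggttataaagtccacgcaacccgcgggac
B2m: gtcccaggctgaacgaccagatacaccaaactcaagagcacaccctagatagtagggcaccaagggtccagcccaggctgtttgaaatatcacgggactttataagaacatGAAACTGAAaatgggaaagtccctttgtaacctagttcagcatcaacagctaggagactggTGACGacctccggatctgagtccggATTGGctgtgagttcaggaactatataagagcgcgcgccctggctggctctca

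Read from left to right, H2-K1 and H2-D1 held a kappaB core, an IRF element on the opposite strand, an X2 core and an inverted CCAAT box. B2m held an interferon-stimulated response element core, an X2 core and an inverted CCAAT box. Among 32851 mouse promoter windows of this length, the kappaB core matched in 0.213%, the interferon-stimulated response element core in 7.13%, the IRF element in 6.31%, the X2 core in 17.8%, the inverted CCAAT box in 33.8% and the gamma-activated site in 7.02%. Either interferon-type element, an X2 core and an inverted CCAAT box stood together in 223 windows, 0.679%. With a kappaB core as well there were 5 windows, 0.0152%, which belong to 2 annotated starts of H2-K1 and to H2-D1, H2-Q7 and Kat5. In H2-K1, H2-D1 and B2m the first letters of the X2 core and of the inverted CCAAT box were 25 bases apart, a spacing that was searched for after the sequences had been seen. That arrangement on the gene's strand occurred in 18 windows, 0.0548%, belonging to 15 genes. These are letter matches in a fixed window, and no binding was measured.

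The shared window between Psmb9 and Tap1 is shown because these neighbours are transcribed away from each other, and Psmb9 was called beside Psmb8 in 3 sets of epithelial cells described below. The 225 bases between their RefSeq starts lie at chr17:34187331-34187555 and are written on the Tap1 strand.
Psmb9-Tap1 interval: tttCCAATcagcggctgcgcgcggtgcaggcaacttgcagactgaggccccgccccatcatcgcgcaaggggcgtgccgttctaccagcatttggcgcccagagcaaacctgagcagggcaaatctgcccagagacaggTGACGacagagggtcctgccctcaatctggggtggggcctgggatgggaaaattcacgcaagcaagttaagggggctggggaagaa
The interval held a CCAAT box and an X2 core and no match to the other 4 motifs. Of the remaining windows, Psmb8 held a gamma-activated site 97 to 89 bases before its start, Tapbp held a pair of inverted CCAAT boxes, and Cd274 held an interferon-stimulated response element core on the opposite strand.

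The matrix is 1 pooled sample without replicates. Cells of a single culture are not replicates, so no test between groups of cells was possible and no p-value is given. Levels are given as CPM, the UMIs of a gene per 1000000 UMIs summed over a set of cells, with exact 95% Poisson intervals in brackets. Ratios carry exact 95% binomial intervals and shares of cells carry exact (Clopper-Pearson) ones. All of these cover counting error only, not the spread between cultures. A call between 2 sets of cells required that the ratio of a gene was at least 2, that its higher level reached 10 CPM and that the Poisson intervals did not overlap. The same rule was run over all genes to give the background share. The 3' kit tags each RNA molecule at its end, so CPM is not divided by transcript length.

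Kept cells held 45443280 UMIs, with a median of 2955 per cell and 1218 to 5247 from the 5th to the 95th percentile. Cells were sorted into sets by markers outside the 10 genes. Epithelial cells had at least 3 UMIs of 8 epithelial markers such as Krt14 and Epcam and at most 1 UMI of 10 mesenchymal markers such as Vim and Col1a1. Mesenchymal cells had at least 3 mesenchymal and at most 2 epithelial marker UMIs. These rules gave 12232 epithelial cells, 1543 mesenchymal cells, 236 mixed cells with at least 3 of both, and 914 ungated cells, whose medians were 1307.5 UMIs per cell and 7.32% mitochondrial. Each set is a range of a marker count rather than a cell type, and 8.30% of the mesenchymal and 2.80% of the epithelial cells stood exactly at the minimum of 3 UMIs. Leukocyte markers were at or near 0: Adgre1 and Nkg7 had 0 UMIs in all kept cells, and Ptprc, Cd3e and Lyz2 had 1 UMI each. Of the other leukocyte-list genes, Cd14 (43.9 CPM) and Cd68 (7.46 CPM) were the most abundant. The endothelial markers Cdh5, Cldn5 and Emcn had 0 UMIs. Markers held out of the gates, 5 epithelial and 5 mesenchymal, were read in the opposite cells as a gauge of free RNA. The epithelial ones had a UMI in 0.907% (Krt6a) to 35.6% (Sfn) of mesenchymal cells, against 51.2% (Dsp) to 76.3% (Sfn) of epithelial cells. The mesenchymal ones had a UMI in 0% (Pdgfrb) to 11.2% (Postn) of epithelial cells, against 0.972% (Pdgfrb) to 49.8% (Lox) of mesenchymal cells, and Postn, at 10.3% of the latter, did not separate the sets. Krt6a, a keratin, had a UMI in 54.0% of epithelial and 0.907% of mesenchymal cells (medians of 2960 and 3285 UMIs per cell), and Lox, a collagen cross-linking enzyme, in 49.8% of mesenchymal and 1.69% of epithelial cells.

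Over all kept cells the 10 genes made up 0.165% of UMIs (75010 UMIs), and 92.4% of cells had a UMI of at least 1 of them, with a median of 4. B2m was the most abundant at 896 CPM (887 to 905), followed by H2-K1 at 389 (383 to 395), H2-D1 at 211 (207 to 216) and Tapbp at 117 (114 to 121). Tapbp had 9.70 times the level of the next gene. Psmb8 stood at 12.1 CPM (11.1 to 13.2), Tap2 at 9.18 (8.32 to 10.1) and Psmb9 at 9.13 (8.27 to 10.1), the last pair with overlapping intervals. Tap1 at 2.64 (2.19 to 3.16) and Cd274 at 2.53 (2.09 to 3.04) also overlapped, and Nlrc5 was lowest at 1.06 (0.779 to 1.40). A B2m UMI was found in 79.6% of cells, H2-K1 in 61.0%, H2-D1 in 43.0%, Tapbp in 27.8% and Nlrc5 in 0.322%.

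**Figure D1:**
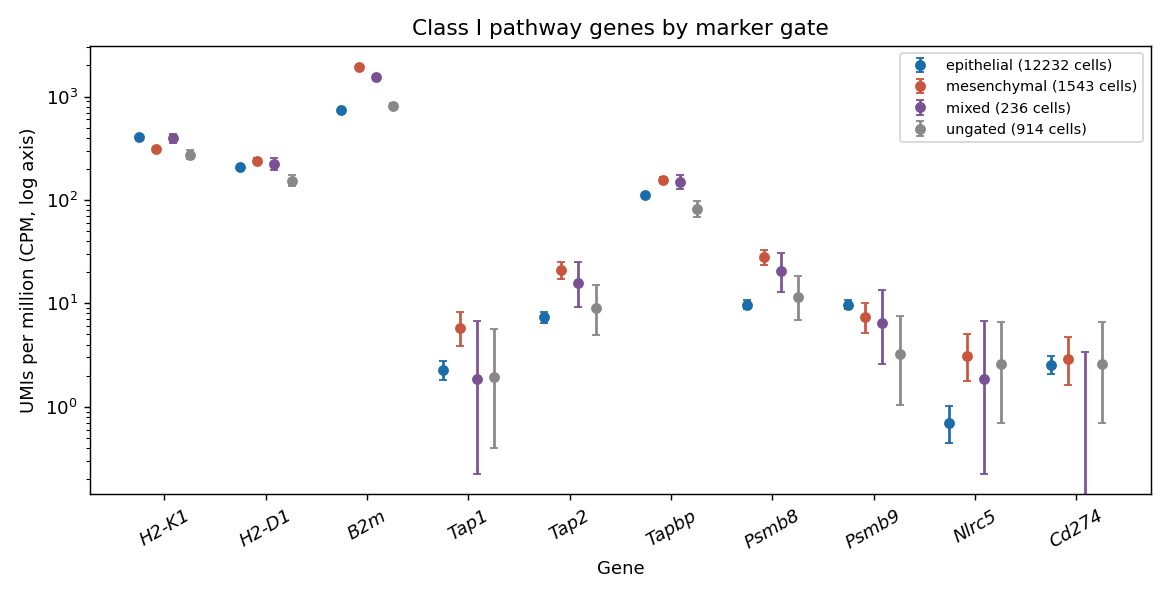
Level of each gene (CPM, log axis) in epithelial, mesenchymal, mixed and ungated cells; points are summed counts and bars are exact 95% Poisson intervals, and Cd274 had 0 UMIs in mixed cells, so only the upper part of its interval is drawn. B2m, Tap2 and Psmb8 lie highest in mesenchymal cells, and H2-K1 is lower there (310 CPM) than in epithelial cells (404 CPM).

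The heavy chains and the light chain differed in how they stood between epithelial and mesenchymal cells. H2-K1, one of the classical heavy chains (ENSMUSG00000061232, chr17:33996017-34000347), stood at 404 CPM (398 to 411) in epithelial and 310 CPM (295 to 325) in mesenchymal cells, a ratio of 0.766 (0.727 to 0.806). H2-D1, the other classical heavy chain measured (ENSMUSG00000073411, chr17:35262730-35267499), stood at 210 CPM (205 to 214) in epithelial and 239.8 CPM (227 to 253) in mesenchymal cells, a ratio of 1.14 (1.08 to 1.22). The heavy chains thus leaned in opposite directions, each by less than the 2-fold needed for a call. Their transcripts are close relatives. Windows of 90 bases were pooled from the last 500 bases of all annotated transcripts of a gene. Of these windows, 2.31% for H2-K1 and 8.93% for H2-D1 also occur in other genes. These are not shares of counts, and the part of the counts that is uncertain was not measured. None of the windows of the other 8 genes was shared.

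B2m, whose protein pairs with class I heavy chains (ENSMUSG00000060802, chr2:122147686-122153083), was called higher in mesenchymal cells. Its level was 739 CPM (731 to 748) in epithelial and 1921 CPM (1884 to 1960) in mesenchymal cells, a ratio of 2.60 (2.54 to 2.66). After thinning every cell at random to 1500 UMIs, a B2m UMI was found in 61.3% of epithelial cells (60.4 to 62.2) and 92.3% of mesenchymal cells (90.9 to 93.6). Before thinning these shares were 79.8% and 99.03%. The thinning left out 1055 epithelial and 15 mesenchymal cells below that depth. Mixed cells lay between at 1556 CPM (1482 to 1632). With more B2m and less H2-K1, mesenchymal cells had 6.21 B2m UMIs per H2-K1 UMI, against 1.83 in epithelial cells.

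Among the transport and loading genes, only Tap2 was called. Tap2, one subunit of the peptide transporter (ENSMUSG00000024339, chr17:34203527-34216321), stood at 7.36 CPM (6.52 to 8.28) in epithelial and 21.03 CPM (17.3 to 25.4) in mesenchymal cells, a ratio of 2.86 (2.27 to 3.58). Tap1, the partner subunit (ENSMUSG00000037321, chr17:34187553-34197225), had a ratio of 2.56 (1.63 to 3.93) on 30 mesenchymal and 85 epithelial UMIs, and its 5.79 CPM missed the minimum level. Tapbp (ENSMUSG00000024308, chr17:33915899-33929292) stood at 113 CPM in epithelial and 156 CPM in mesenchymal cells, a ratio of 1.39 (1.28 to 1.49).

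Of the immunoproteasome subunits, only Psmb8 was called. Psmb8, a catalytic subunit that replaces Psmb5 (ENSMUSG00000024338, chr17:34197721-34201454), was called higher in mesenchymal cells at 28.0 CPM (23.6 to 32.9), against 9.70 CPM (8.73 to 10.7) in epithelial cells, a ratio of 2.88 (2.36 to 3.51). Psmb9, which replaces Psmb6 (ENSMUSG00000096727, chr17:34181987-34187764), stood at 7.33 CPM (5.19 to 10.1) in mesenchymal and likewise 9.70 CPM in epithelial cells, a ratio of 0.756 (0.526 to 1.06). Both levels missed the minimum of 10 CPM, so Psmb9 was not tested, and its ratio interval included 1. In GENCODE M21 the annotated ends of Psmb9 and Tap1 overlap on opposite strands at their 5' ends, away from the 3' tags. The constitutive subunits, named after their values were seen, were far more abundant: Psmb5 stood at 162 CPM in epithelial and 252 CPM in mesenchymal cells, and Psmb6 at 232 and 229 CPM. Per molecule tagged, Psmb8 reached 11.1% of the Psmb5 level in mesenchymal and 6.001% in epithelial cells.

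Nlrc5 and Cd274 were near the limit of detection. Nlrc5 (ENSMUSG00000074151, chr8:94434356-94527272) had 26 UMIs in 12232 epithelial cells and 16 in 1543 mesenchymal cells, a ratio of 4.47 (2.24 to 8.65) between levels of 0.691 and 3.09 CPM. Cd274 (ENSMUSG00000016496, chr19:29367455-29388095) had 96 and 15 UMIs, a ratio of 1.13 (0.611 to 1.97). In epithelial cells the shares of cells with a UMI were 0.213% for Nlrc5, 0.695% for Tap1 and 0.760% for Cd274. These lay between the shares of the held-out mesenchymal markers Fbn1 (0.139%) and Lox (1.69%) in the same cells. Such a share depends on the level in the cells that release the RNA, so it sets no floor for other genes. The part of free RNA was not tested, and neither presence nor absence is read from these shares. In mesenchymal cells Cd274, at 0.907%, stood at the share of Krt6a, the lowest of the 5 epithelial markers there.

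Of the 10 genes, 6 reached the minimum level in this comparison and 3 were called, all higher in mesenchymal cells. Over all 9128 genes tested, 22.8% were called, 11.4% of them higher and 11.4% lower (shares of all genes tested). The median ratio was 1.90 over the 6 and 0.987 over all genes tested. Mesenchymal cells also carried more UMIs of 9 interferon-stimulated markers (Isg15, Ifit1, Ifit3, Ifit3b, Rsad2, Usp18, Oasl2, Rtp4 and Ifi44), 837 against 298 CPM in sum. Among cells with 0 UMIs of these markers (442 mesenchymal, 7299 epithelial), a check added after the data were seen, the ratios were 2.68 (2.57 to 2.80) for B2m, 2.69 (1.65 to 4.21) for Tap2 and 2.86 (1.81 to 4.38) for Psmb8, and all 3 were still called. Of the 12 mitotic genes used below, 11 were called lower in mesenchymal cells, and among non-dividing cells B2m stood at 1940.3 CPM in mesenchymal and 777 CPM in epithelial cells.

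Epithelial cells with many interferon-stimulated transcripts had more Psmb8, Psmb9 and Tap2. The high set held 866 epithelial cells in the top 10% for the 9 markers (at least 3 UMIs of at least 2 of them), and the low set the 7299 epithelial cells with none. Their median depths were 3055.5 and 2850 UMIs, and 14.3% of the high set lay within 20% above the cut. Of the 10 genes, 7 reached the minimum level and 3 were called, all higher, against 1.65% of all 8622 genes tested (1.3% higher and 0.348% lower). The median ratio was 1.92 over the 7 and 0.990 over all genes tested. The choice of cells used the 9 markers and none of the 10 genes. The ratios of the 7 were above 1 in all alternative settings run for this set. Both Ltf and Lcn2 were also called higher in it and 3 of 12 mitotic genes lower, and their part in the result was not tested.

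The immunoproteasome subunits had the largest called ratios. Psmb8 stood at 27.3 CPM in the high and 6.40 CPM in the low set, a ratio of 4.27 (3.18 to 5.69). Psmb9 stood at 28.4 and 6.96 CPM, a ratio of 4.08 (3.06 to 5.402). Tap2 was also called, at 14.6 against 6.03 CPM, a ratio of 2.42 (1.65 to 3.47), a call that was lost with thinned counts (ratio 2.56). Tap1 (3.39, 1.76 to 6.25), Cd274 (3.43, 1.69 to 6.62) and Nlrc5 (7.85, 2.93 to 21.02) had ratios whose intervals lay above 1, on 16, 14 and 10 UMIs in the high set, below the minimum level, and were not tested.

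The abundant members differed by less than 2-fold, except that H2-D1 reached 2.16 and was called when the high set was the top 5% of cells. H2-D1 stood at 341 against 178 CPM, a ratio of 1.92 (1.78 to 2.06). B2m stood at 1162 against 637 CPM, a ratio of 1.82 (1.75 to 1.89). H2-K1 stood at 581 against 354 CPM, a ratio of 1.64 (1.56 to 1.74), and Tapbp at 161 against 99.8 CPM, a ratio of 1.61 (1.45 to 1.78). The ratio interval of H2-D1 lay above that of H2-K1.

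Graded by marker UMIs after thinning, cells with more of them had higher levels of the members given here. With so few UMIs per cell, a grade can mix cells of low and high marker level. Steps and a jump thus cannot be told apart. In epithelial cells with 0, 1, 2 and 3 or more marker UMIs (8171, 2014, 562 and 430 cells), B2m stood at 672 (658 to 687), 847 (815 to 881), 1082 (1013 to 1154) and 1304 (1217 to 1395) CPM. H2-D1 stood at 193 (185 to 201), 247 (229.9 to 266), 279.95 (245 to 318) and 386 (339.6 to 437) CPM. H2-K1 stood at 368, 460.4, 524 and 575 CPM, the last 2 with overlapping intervals. Psmb8 stood at 8.08 (6.57 to 9.83), 12.2 (8.62 to 16.9), 14.2 (7.36 to 24.9) and 37.2 (23.8 to 55.4) CPM, and the last interval lay above those at 0 and 1 marker UMIs. Psmb9 went from 7.67 (6.20 to 9.39) to 34.1 (21.4 to 51.6) CPM.

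**Figure D2:**
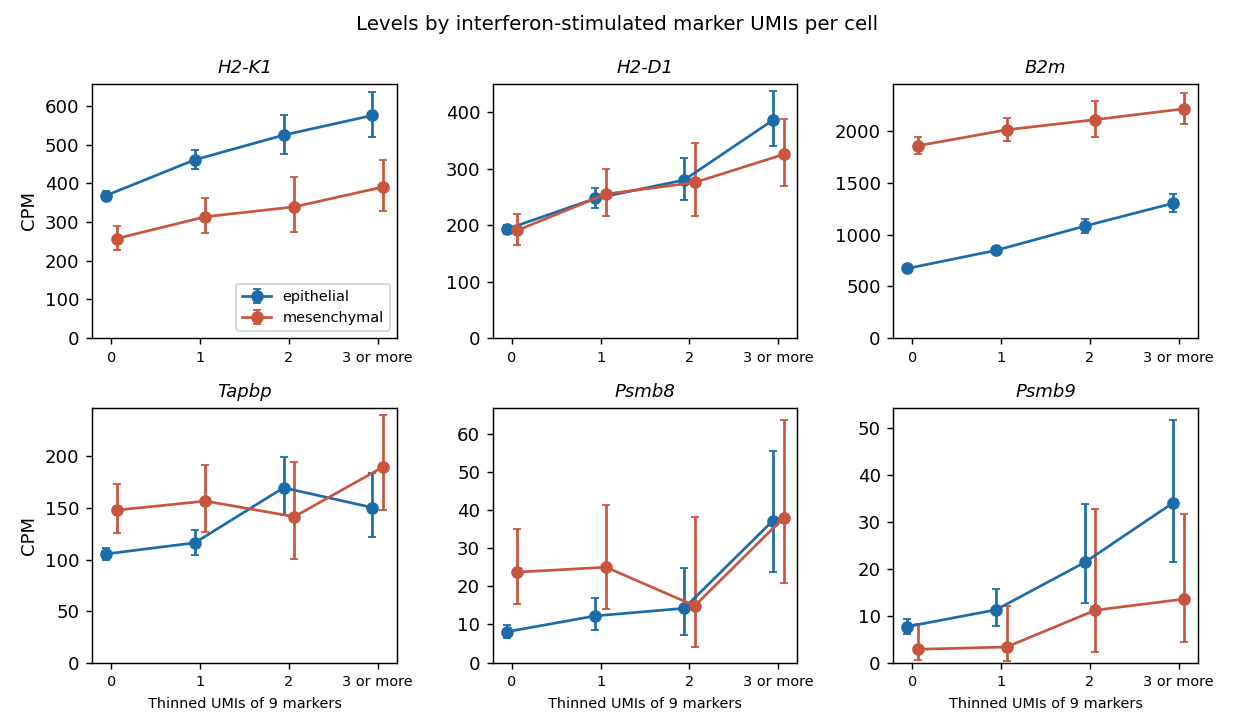
Level (CPM) of 6 of the genes in epithelial and mesenchymal cells thinned to 1500 UMIs, by the number of UMIs of 9 interferon-stimulated markers in the cell; bars are exact 95% Poisson intervals. B2m in mesenchymal cells stays above its epithelial level in every step, and H2-D1 overlaps between the sets throughout.

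In mesenchymal cells the same grading separated the end steps of the heavy chains and of B2m. From 0 to 3 or more marker UMIs (703 and 246 cells), H2-K1 went from 257 (227 to 289) to 390.2 (329 to 459) CPM and H2-D1 from 191 (165 to 219) to 325 (269.6 to 389) CPM. B2m went from 1859 (1777 to 1943) to 2217 (2067 to 2374) CPM. Even mesenchymal cells with no marker UMI had more B2m than epithelial cells with 3 or more. At 0 marker UMIs, H2-D1 stood at 193 CPM in epithelial and 191 CPM in mesenchymal cells, with overlapping intervals.

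A direct comparison of 443 mesenchymal cells with at least 3 UMIs of at least 2 of the markers and 442 with none was added after the data were seen. Psmb9 was called higher, at 12.8 against 2.11 CPM on 20 and 3 UMIs, a ratio of 6.04 (1.79 to 31.7), while 1.1% of all 8670 genes tested were called (0.83% higher and 0.265% lower). H2-K1 had a ratio of 1.46 (1.27 to 1.67), H2-D1 1.37 (1.17 to 1.61), B2m 1.19 (1.13 to 1.26) and Psmb8 1.99 (1.23 to 3.29). Whether the effect of marker level on B2m differs between mesenchymal and epithelial cells was not tested, and the ratios of 1.19 and 1.82 had intervals that did not overlap.

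Across 9 other high sets of epithelial cells, each drawn from the top 10% for a marker group against cells at or below its median, 7 calls were made. A cell of a high set also needed at least 3 marker UMIs, from at least 2 genes where the group had more than 1. The sets therefore ran from 145 cells (Ly6c1 and Pate14) to 1224 (Wfdc18 and Ly6d, each). With the interferon-stimulated set there were 10 calls among 62 pairs of member and set tested, and the other 38 pairs were below the minimum level. Over all genes tested, the share called in the 10 sets ran from 1.65% to 8.9%. The sets share cells: 51.3% of the Ltf and Lcn2 set was also in the Ly6d set, and 15.8% of the interferon-stimulated set in the CXC chemokine set. Each is a range of a score, and between 1.00% (Ltf and Lcn2) and 40.4% (Malat1 and Neat1) of the cells of these 9 sets lay within 20% above the cut.

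**Figure D3:**
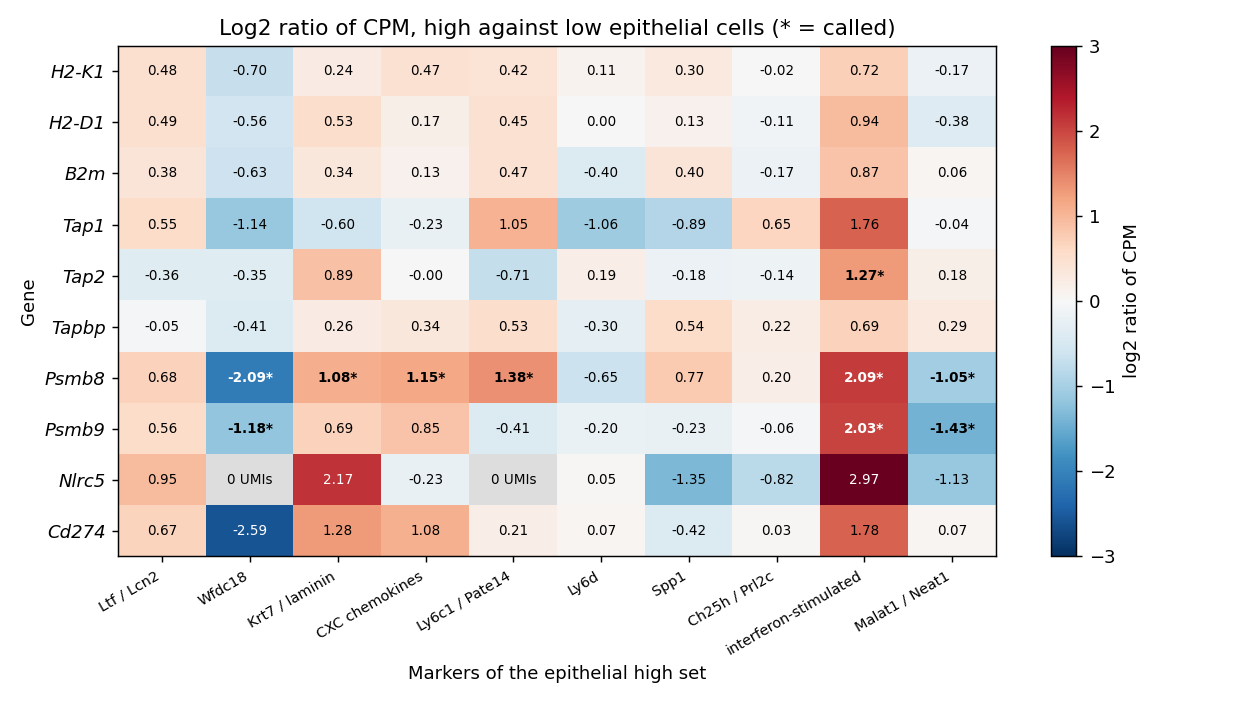
Log2 ratio of CPM in high against low epithelial cells for each gene (rows) and marker group (columns); red is higher in the high set, blue lower, and an asterisk marks a call (ratio of at least 2, at least 10 CPM, intervals apart). Grey cells had 0 UMIs in the high set. The interferon-stimulated column is red throughout and the Wfdc18 column has no red cell.

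Cells high in Wfdc18, a gene for a small secreted WAP-domain protein, had a ratio below 1 for every member, also in each alternative setting run. The set held 1224 cells against 6116 low cells, with median depths of 2912 and 2984.5 UMIs. H2-K1 stood at 280.5 against 457 CPM, a ratio of 0.614 (0.575 to 0.656). B2m stood at 539.7 against 837 CPM, a ratio of 0.645 (0.615 to 0.676), and H2-D1 at 159 against 236 CPM, a ratio of 0.676 (0.619 to 0.737). Psmb8 and Psmb9 were called lower, at 3.28 against 14.0 CPM (ratio 0.235, 0.11996 to 0.418) and 5.19 against 11.8 CPM (ratio 0.442, 0.261 to 0.706). These 2 calls compare with 2.68% of 8581 genes called, 0.559% higher and 2.12% lower. Tapbp had a ratio of 0.751 (0.669 to 0.842). Cd274 had 2 UMIs in the high set against 63, a ratio of 0.166 (0.0197 to 0.625), and Nlrc5 had 0 UMIs against 18. The ratio intervals of Tap1, Tap2 and Nlrc5 included 1.

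The Wfdc18-high cells also held fewer interferon-stimulated marker UMIs, 227 against 341 CPM. Among cells with 0 of those UMIs the ratio was 0.641 (0.588 to 0.698) for H2-K1, 0.680 (0.639 to 0.723) for B2m, 0.276 (0.0988 to 0.624) for Psmb8 and 0.429 (0.179 to 0.887) for Psmb9. Neither subunit was called among these cells, although both ratio intervals lay below 1. Here too, 0 marker UMIs does not mean that a cell held no marker RNA. Irf1, an interferon-regulatory factor, was called lower in the Wfdc18-high set, at 37.5 against 85.9 CPM, and so was Bst2, an interferon-induced membrane protein, at 132 against 270 CPM.

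Psmb8 was the member called most often. It was called higher in cells high in CXC chemokines (17.0 against 7.68 CPM, ratio 2.22, 1.66 to 2.95), where 4.22% of genes were called (1.9% higher and 2.33% lower). It was called higher in cells high in Krt7 and laminin-332 genes (16.1 against 7.61 CPM, ratio 2.11, 1.48 to 2.97), where 4.11% were called (2.7% higher and 1.41% lower). It was called higher in the 145 cells high in Ly6c1 and Pate14 (23.2 against 8.92 CPM on 15 UMIs, ratio 2.60, 1.43 to 4.37), where 4.85% were called (2.38% higher and 2.48% lower). Psmb9 had ratios of 1.81 (1.36 to 2.39), 1.61 (1.11 to 2.29) and 0.752 (0.242 to 1.78) in the same order. In the CXC chemokine set the call was lost without the 5% of cells with the most UMIs (ratio 1.94) and with thinned counts (1.59). In the Krt7 set it was lost with thinned counts (1.34), median-of-ratios scaling (1.92), the top 5% (1.48) and cells with 0 interferon-stimulated UMIs (1.79). In the Ly6c1 set it was lost without the deepest cells (1.96), with thinned counts (5.11), the top 5% (2.25) and cells with 0 such UMIs (1.47). Median depths in the high and low sets were 3847 and 2561 UMIs for CXC chemokines, 2286 and 3112.5 for Krt7 and 4212 and 2776 for Ly6c1. By depth quartile of epithelial cells, from shallowest to deepest, Psmb8 stood at 7.37, 8.37, 7.91 and 12.5 CPM. The interval of the deepest quartile (10.7 to 14.5) lay above the others. The part of depth in these results was not tested.

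In cells high in the nuclear RNAs Malat1 and Neat1, both subunits were called lower, while 7.24% of genes were called (3.12% higher and 4.11% lower). Psmb8 stood at 5.61 against 11.6 CPM (ratio 0.482, 0.259 to 0.826) and Psmb9 at 4.004 against 10.8 CPM (ratio 0.372, 0.176 to 0.698). The Psmb8 call sat at the threshold and was lost under 8 settings, 6 of which moved its ratio to between 0.503 and 0.575. The Psmb9 call was lost with thinned counts (ratio 0.389) and in cells with 0 interferon-stimulated UMIs (0.189). Relative to the median of all genes, which lay 0.14 (Krt7 set), -0.12 (CXC chemokine set) and 0.12 (Malat1 set) from 0 on the log2 scale, the Psmb8 ratios were 1.92, 2.41 and 0.443. B2m had a ratio of 1.05 (0.995 to 1.10) and Tapbp 1.22 (1.08 to 1.38) in the same cells. The median percentage of mitochondrial UMIs was 3.45 in the high and 2.45 in the low set, and its part in the result was not tested.

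No member was called in the sets high in Ltf and Lcn2, Ly6d, Spp1, or Ch25h and Prl2c genes, where 8.9%, 6.79%, 2.35% and 2.07% of genes were called, respectively. In the same order 5.08%, 3.03%, 1.39% and 0.661% of genes were called higher and 3.82%, 3.76%, 0.959% and 1.4% lower. Tap1, Tap2, Nlrc5 and Cd274 were below the minimum level in all of these sets. At such shares the absence of calls says little about the members. Smaller differences were measured: H2-K1 had a ratio of 1.39 (1.30 to 1.49) in the set high in Ltf and Lcn2, and B2m 1.32 (1.27 to 1.37) in the Spp1 set and 0.756 (0.723 to 0.790) in the Ly6d set.

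Dividing epithelial cells had less B2m and Tapbp, by less than 2-fold, and no member was called in dividing cells. Dividing epithelial cells (1966, with UMIs of at least 3 of 12 mitotic genes) and non-dividing ones (9820, with at most 1 UMI) gave 0 calls among the members, while 6.95% of genes were called (5.77% higher and 1.18% lower). Only H2-K1, H2-D1, B2m and Tapbp reached the minimum level there, so 0 calls say little about the members at that share. B2m stood at 611 against 777 CPM, a ratio of 0.787 (0.762 to 0.812). Tapbp had a ratio of 0.781 (0.719 to 0.848), H2-K1 0.922 (0.885 to 0.960) and H2-D1 1.02 (0.968 to 1.08). In mesenchymal cells, 67 dividing against 1446 non-dividing, there were also 0 calls, while 6.85% of genes were called (5.21% higher and 1.64% lower), and B2m had a ratio of 0.787 (0.714 to 0.865). With these 67 cells the intervals of the scarce members were wide, as for Psmb8 at 2.03 (1.10 to 3.48). Psmb9, Nlrc5 and Cd274 stayed below the minimum level in this comparison.

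In epithelial cells, those with more H2-K1 also had more H2-D1 and B2m. In thinned epithelial cells with 0, 1, 2 and 3 or more H2-K1 UMIs (6421, 3266, 1124 and 366 cells), H2-D1 stood at 189 (180.3 to 198), 231 (218 to 245), 266 (242 to 291.5) and 353 (305 to 407) CPM. B2m stood at 677 (660.4 to 693), 786 (761 to 811), 933 (887 to 980.2) and 1109 (1023 to 1201) CPM. In mesenchymal cells H2-D1 stood at 229.7 (206 to 255) CPM with 0 and 278 (205 to 369) with 2 H2-K1 UMIs, intervals that overlap, and B2m at 1892 (1823 to 1962) and 2128 (1915 to 2357) CPM, which overlap as well.

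**Figure D4:**
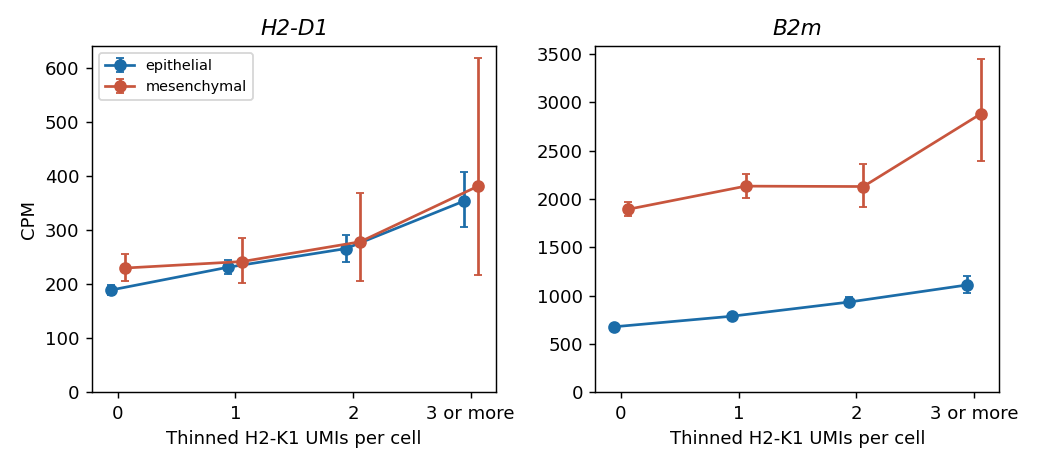
Level (CPM) of H2-D1 and B2m in thinned epithelial and mesenchymal cells by the number of H2-K1 UMIs in the cell, with exact 95% Poisson intervals. Both rise in steps in epithelial cells, from 189 to 353 CPM for H2-D1 and from 677 to 1109 CPM for B2m; the last mesenchymal step rests on 28 cells.

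Cell by cell the link was weak. Over 11177 thinned epithelial cells, which share 1 culture and library, Spearman's rho was 0.107 for H2-K1 with B2m, 0.0877 for H2-D1 with B2m and 0.0724 for H2-K1 with H2-D1. Over 1528 mesenchymal cells the values were 0.0713, 0.0380 and 0.0283. At these counts, with means of 0.601 H2-K1 and 1.12 B2m UMIs per thinned epithelial cell, correlations of this size are no finding on their own. Without thinning, the median of the 3 values was 0.216 in epithelial cells, where depth adds to it. B2m had a variance-to-mean ratio of 1.41 in epithelial cells, above 82.5% of 57 genes of like mean (median 1.17), and H2-K1 1.16, above 72.3% of 173 such genes.

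The genes most like the class I group were ranked by Pearson's r of log2(UMIs + 1) with that of the summed UMIs of H2-K1, H2-D1 and B2m, over 11177 thinned epithelial cells and 2589 genes. Bst2 came first (r = 0.235), then Igfbp7, a secreted matrix protein (0.182), and Isg15, a ubiquitin-like interferon-stimulated protein (0.175). Serf2, Myl12b, Lcn2, Cd63, Clu, Myl6 and Nfkbia followed, from 0.133 to 0.104. The 99th percentile of all ranked genes was 0.0761. Over 1528 mesenchymal cells and 2606 genes the first 5 were Bst2 (0.179), Fth1 (0.142), Isg15 (0.137), Mif (0.135) and AA467197 (0.1198). Bst2 and Isg15 stood in both lists. Isg15 is 1 of the 9 markers used above.

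Other genes of the pathway were read from lists. Between mesenchymal and epithelial cells, 3 of 10 non-classical class I heavy chain genes in the matrix were called higher and 0 lower: H2-M3 (47.1 against 11.7 CPM, ratio 4.03), Cd1d1 (10.8 against 1.57, ratio 6.89) and Mr1 (20.1 against 5.47, ratio 3.66), which present peptides, lipids and metabolites. None of 5 other loading genes (Canx, Calr, Pdia3, Erap1 and Tapbpl), 3 other inducible proteasome genes (Psmb10, Psme1 and Psme2) or 10 constitutive proteasome genes was called. Over all genes tested in this comparison, 11.4% were called higher and 11.4% lower. The list counts include genes below the minimum level. In the interferon-stimulated epithelial set, H2-Q4 (12.0 against 4.78 CPM, ratio 2.52) and Psmb10 (24.4 against 11.1 CPM, ratio 2.19) were called higher, while 0 of the 10 constitutive proteasome genes and 0 of the 5 loading genes were. Of 17 interferon signalling genes 4 were called higher there, among them Irf7 and Stat2 at ratios of 6.50 and 3.03. Over all genes tested in that set, 1.3% were called higher and 0.348% lower. At such shares 0 calls say little about the constitutive proteasome and loading genes. MHC class II genes were close to absent, with 0 UMIs of H2-Aa and 3 of the class II transactivator Ciita in all kept cells.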

How the data were processed

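The deposited matrix holds counts (whole numbers of UMIs for each gene in each barcode) and was not normalized; its file header names CellRanger 8.0.1. The submitters' processing notes also name the genome build mm10 and Scanpy 1.8.2. The headers and labels do not tie the matrix to 1 of the 3 libraries (gene expression, barcode, scar), so it was treated as 1 pooled sample. The lowest barcode total was 500 UMIs, and no barcode occurred more than 1 time. For the annotation and strand setting behind the counts, the sources used here give nothing.

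From the deposited counts, cells were filtered (at least 500 genes and 1000 UMIs, at most 20% mitochondrial UMIs) and UMIs were summed per set of cells in Python 3.11.15 with numpy 2.4.6, scipy 1.17.1 and pandas 2.3.3. No doublet caller was run and doublets were not removed; 236 mixed cells were kept apart and 1 alternative dropped the 5% of cells with the most UMIs. No clusters were made. High sets took cells in the top 10% of epithelial cells by the marker share of their UMIs. They also needed at least 3 UMIs, from at least 2 genes where the list had more than 1. Thinning drew 1500 UMIs per cell without replacement and left 13281 cells, 1644 being shallower. The calling rule was tested on simulated counts.

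Genes, lists, gates and alternatives were chosen with earlier results of these data known. The text names the 10 genes throughout, from each other list at most 3 called genes a direction, by size of ratio, and the genes most like the class I group (10 in epithelial, 5 in mesenchymal cells, mean of at least 0.1 thinned UMIs); other genes named were chosen after their values were seen. Alternatives changed the cell filters, the gate and set thresholds, the depth, the denominator, the scaling, the weight of cells and the minimum level. GENCODE M21 (GRCm38) supplied gene positions and held 32158 of the 32287 feature IDs; promoters are from RefSeq on GRCm38.p6. Values of some listed genes are not reported here.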

Additional observations from a re-analysis of the deposited data

How the results depend on the processing

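With 1 sample, all statements rest on counting error and no paired analysis was possible because there are no replicates. Of 1370 alternative ratios of single members, 1242 kept their side of the calling rule or moved by less than their interval, 24 lost a call, 12 gained one, 92 uncalled ratios moved and 0 called ratios changed direction; the cause was not tested where none is given. The summed level of the 10 genes (1651 CPM) was 1665 with at least 1000 genes and 2000 UMIs, 1664 with at most 10% mitochondrial UMIs, 1676 from thinned counts, 1829 with a denominator without GFP, Scar, Malat1, mitochondrial genes and gate markers, a smaller denominator by construction, and 1630.4 as the mean of single-cell values. Without a minimum CPM, 5 members were called between mesenchymal and epithelial cells in place of 3, 6 in the interferon-stimulated set in place of 3, 2 each in the Krt7 and CXC chemokine sets in place of 1, and 16 over all high sets in place of 10. From thinned counts the total was 6, with 0 in the Krt7 and CXC chemokine sets and 2 in the interferon-stimulated set. Without the 5% of cells with the most UMIs, the CXC chemokine and Ly6c1 sets had 0 calls. Median-of-ratios scaling left 0 in the Krt7 set. With the top 5% of cells there were 4 in the interferon-stimulated set, 0 in the Krt7 and Ly6c1 sets, 1 in the Wfdc18 set in place of 2 and 1 in the Ltf and Lcn2 set in place of 0. In cells with 0 interferon-stimulated UMIs, a setting added after seeing the data, 2 calls over 9 high sets were made in place of 7, both in the CXC chemokine set, and 0 in the Wfdc18, Krt7, Ly6c1 and Malat1 sets. The Malat1 set had 1 call in place of 2 under the 2 stricter cell filters, without the deepest cells, with gates of 5 UMIs, thinned counts, the smaller denominator, the mean of single-cell values and the top 5%. The median correlation of H2-K1, H2-D1 and B2m was 0.0877 in epithelial cells, 0.216 unthinned and 0.111 at 2500 UMIs; in mesenchymal cells it was 0.0380, 0.201 unthinned, 0.136 at 2500 UMIs, 0.106 without the deepest cells and 0.0630 with at most 10% mitochondrial UMIs. The calls for B2m, Tap2 and Psmb8 between mesenchymal and epithelial cells held in all 10 alternatives run, with B2m from 2.54 to 2.68.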

Other observations

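Interferon-related genes outside the class I pathway did not move as a block between mesenchymal and epithelial cells. Of 16 other interferon-stimulated genes, 6 were called higher and 1 lower in mesenchymal cells, where 11.4% of all genes tested were called in each direction. Gbp7, a guanylate-binding protein, stood at 25.3 against 3.61 CPM (ratio 6.99, 5.46 to 8.95), Bst2 at 672 against 220.2 CPM (ratio 3.05, 2.93 to 3.17) and Irgm1, an immunity-related GTPase, at 84.5 against 32.7 CPM (ratio 2.58, 2.31 to 2.88). Ifitm3, a membrane protein that blocks viral entry, stood the other way at 721 against 3068 CPM (ratio 0.235, 0.227 to 0.243). Of 17 interferon signalling genes, Socs1, an inhibitor of JAK signalling, was called higher (41.3 against 13.2 CPM, ratio 3.13, 2.66 to 3.68) and Irf1, a transcription factor that acts on class I promoters, lower (29.7 against 69.0 CPM, ratio 0.430, 0.363 to 0.506). In the interferon-stimulated epithelial set 9 of the 16 were called higher and 0 lower, led by Gbp2 (ratio 6.69), Gbp7 (6.28) and Bst2 (6.06). There 1.3% of all genes tested were called higher and 0.348% lower. That set was chosen by 9 other interferon-stimulated markers, so these calls are not independent of the choice of cells.

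Ligands that other immune receptors read were counted apart from Cd274. Among 13 such genes, 8 were tested between mesenchymal and epithelial cells, 1 was called higher and 2 lower, where 22.8% of all genes tested were called. Vtcn1, an inhibitory B7-family ligand, stood at 28.4 CPM in epithelial and 2.51 CPM in mesenchymal cells. Cd80, a co-stimulatory ligand, had 617 UMIs (16.4 CPM) in epithelial and 0 in mesenchymal cells, at least 28.3-fold lower with 3 UMIs over the mesenchymal set as the floor. Pvr, an adhesion ligand of NK and T cell receptors, stood at 24.7 CPM in mesenchymal and 4.89 CPM in epithelial cells, a ratio of 5.05 (3.998 to 6.36). Ulbp1, a ligand of the NK cell receptor NKG2D, was called higher in dividing cells. It stood at 41.4 against 12.3 CPM in epithelial cells (ratio 3.38, 2.89 to 3.94; 6.95% of genes called) and at 65.2 against 18.0 CPM on 19 and 86 UMIs in mesenchymal cells (ratio 3.62, 2.08 to 5.999; 6.85% of genes called). It was called lower in the epithelial sets high in Ly6d (ratio 0.207, 0.122 to 0.331; 6.79% of genes called) and in Ltf and Lcn2 (ratio 0.271, 0.123 to 0.517; 8.9% of genes called), which share cells. Dividing epithelial cells had a median of 3746 UMIs and non-dividing ones 2842, and the part of depth in this difference was not tested.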
